A study of Homo sapiens with 3 samples.

Results

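The genes described here encode lysosomal enzymes, lysosomal membrane and lumenal proteins, subunits of the vacuolar proton pump (V-ATPase), and the TFEB family of transcription factors. They were taken from a list of 38 genes and matched by Entrez identifier to the 25702 genes of the deposited counts. The rule names genes by function and uses no measured value, although the list was drawn up with earlier results of these data known. All 38 members passed the filter of at least 10 counts in at least 1 library, which left 12879 genes for testing. The cells were Molm13, a human acute myeloid leukemia line that carries an internal tandem duplication of the receptor tyrosine kinase gene FLT3. Cultures received DMSO, the vehicle control, or 50 nM or 100 nM pyrvinium for 6 h. No other agent or engineered change was named in the labels. Total RNA was made into 1 stranded mRNA library per condition and sequenced. Pyrvinium is an anthelmintic cationic dye, and the study asked how it acts on leukemia cells.

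Lysosomes break down proteins, glycans, lipids and nucleic acids with hydrolases that work at acid pH. The V-ATPase provides that pH. Its cytosolic V1 sector hydrolyses ATP, and its membrane V0 sector carries protons into the lumen. TFEB, TFE3 and MITF bind E-box motifs in the promoters of many lysosomal genes. They are held in the cytosol by the kinase mTORC1, which is itself recruited to the lysosomal surface through the Rag GTPases and the Ragulator complex.

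The libraries held 23165771 (DMSO), 22677038 (50 nM) and 24075123 (100 nM) counts. With 1 library per condition there was no replicate check. The test was an exact two-sided binomial test of the counts of a pair of libraries. It compares those libraries and not the conditions, and all intervals given here are 95% intervals that hold counting error only. Fold changes are log2 ratios of scaled counts against the DMSO library. Calls needed a p of at most 0.05 after Benjamini-Hochberg adjustment over all 12879 genes, together with a stated fold. In these bulk libraries, fewer cells of a type and less RNA per cell cannot be told apart. All 7 myeloid markers were detected, with a summed level of 1203 CPM (counts divided by library size) in DMSO, 1277 at 50 nM and 1341 at 100 nM. FLT3, at 272, 398 and 464 CPM, differed by more than the sum did, while CD33, LYZ, SPI1 and CEBPA were lower at 100 nM than in DMSO. The 3 T cell markers summed to 31, 23 and 19 counts in the same order, and the 3 B cell markers to 7, 8 and 3. The 3 erythroid markers summed to 0, 16 and 1 counts, and the 3 epithelial markers were at 0 in every library. The part of these markers in the results was not tested.

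Most lysosomal members were expressed above the typical gene in Molm13 cells. In DMSO, 28 of the 38 members lay above 9.15 RPKM, the median of all genes tested, where RPKM is counts divided by exonic length and library size and allows levels to be compared between genes. ATP6V0B, a subunit of the proton-carrying V0 ring, had the highest level, at 155 RPKM. It was followed by ATP6V0E1, a small V0 subunit, at 97.8 RPKM. PPT1, the thioesterase that removes palmitate from proteins, came next at 95.8 RPKM and ATP6V1B2, a subunit of the ATP-hydrolysing V1 head, at 95.2 RPKM. These last 3 levels lay within counting error of one another. The lowest levels were those of the factors and of some enzymes. MITF stood at 0.998 RPKM, TFE3 at 2.21 RPKM, and NEU1, the lysosomal sialidase, at 2.67 RPKM. TFEB, at 6.26 RPKM, had the highest level of its family. The members' counts lay between 121 and 6718 in any library, so every fold change below rests on more than the 3 counts taken as the floor of detection.

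**Figure D1:**
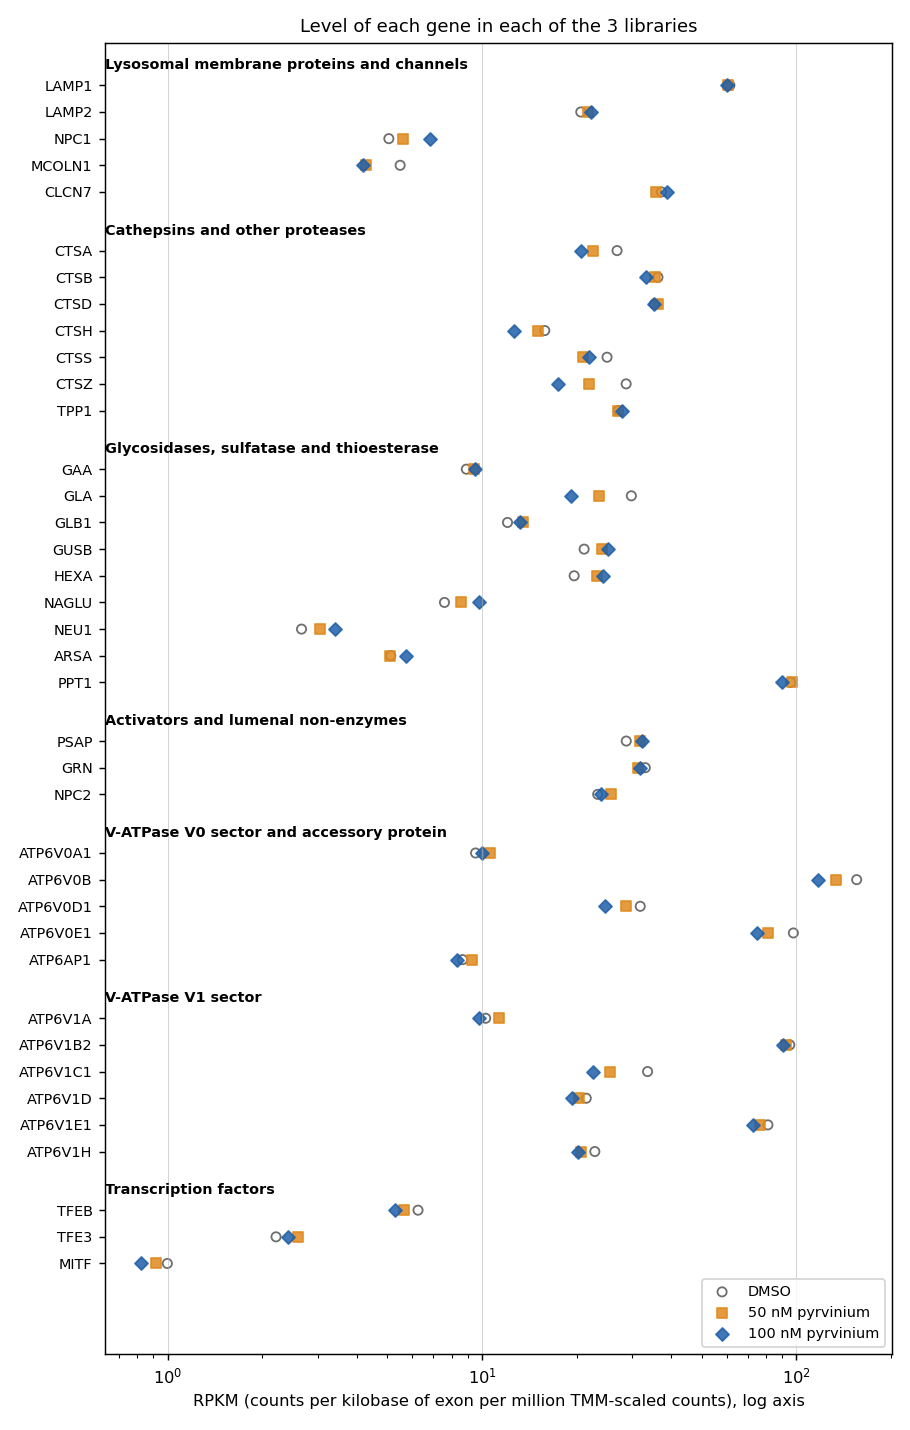
Each row is a member, the x axis is its RPKM on a log scale, and the 3 points are the DMSO, 50 nM and 100 nM libraries. ATP6V0B lies farthest to the right and MITF farthest to the left, and the points of a gene lie close together beside the spread between genes.

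At 100 nM, no member was called at 2-fold, the threshold of the study, beside 2.20% of all genes tested. At 1.5-fold, 2 members were called, CTSZ and GLA, and both were lower. This was 5.26% of the members beside 6.71% of all genes called in either direction. At the lowest threshold used, a log2 fold change of 0.32, which is a ratio of at most 0.8 for lower genes, 8 members were called lower. They were the proteases CTSZ and CTSA, the glycosidase GLA, the calcium channel MCOLN1 and the V-ATPase subunits ATP6V1C1, ATP6V0B, ATP6V0E1 and ATP6V0D1. They made up 21.1% of the members, beside 8.20% of all genes tested. NPC1 and NAGLU were called higher, which was 5.26% of the members beside 10.3% of all genes. These calls rest on counting error alone, and none of them held when a biological coefficient of variation of 0.1 between cultures was assumed in edgeR's exact test. CTSH, at -0.32, lay just short of this threshold. Calls in the text that follows use it unless another fold is given.

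At 50 nM, no member was called at 2-fold or at 1.5-fold, beside 0.955% and 2.58% of all genes. At 0.32, 4 members were called lower (CTSZ, GLA, MCOLN1 and ATP6V1C1), or 10.5% beside 3.80% of all genes. No member was called higher, beside 4.56% of all genes. The comparisons of the 2 doses share the DMSO library, so a high or low count in that library enters both. A direct ratio of the 100 nM and 50 nM libraries, which leaves DMSO out, had an interval below 0 for 11 members, above 0 for 3 and across 0 for 24. This was 28.9% of the members below 0 and 7.89% above, beside 14.3% and 12.5% of all genes tested. The median of that ratio was -0.06 over the members and 0.00 over all genes tested. Counting intervals narrow as counts rise. Members held at least 121 counts in any library, while a gene tested needed only 10 in its highest library. Shares of calls and of intervals clear of 0, here, above and below, are therefore not matched for level. With a count minimum of 50, 1.32% of all genes were called at 2-fold at 100 nM, and 9.26% lower and 11.1% higher at 0.32.

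**Figure D2:**
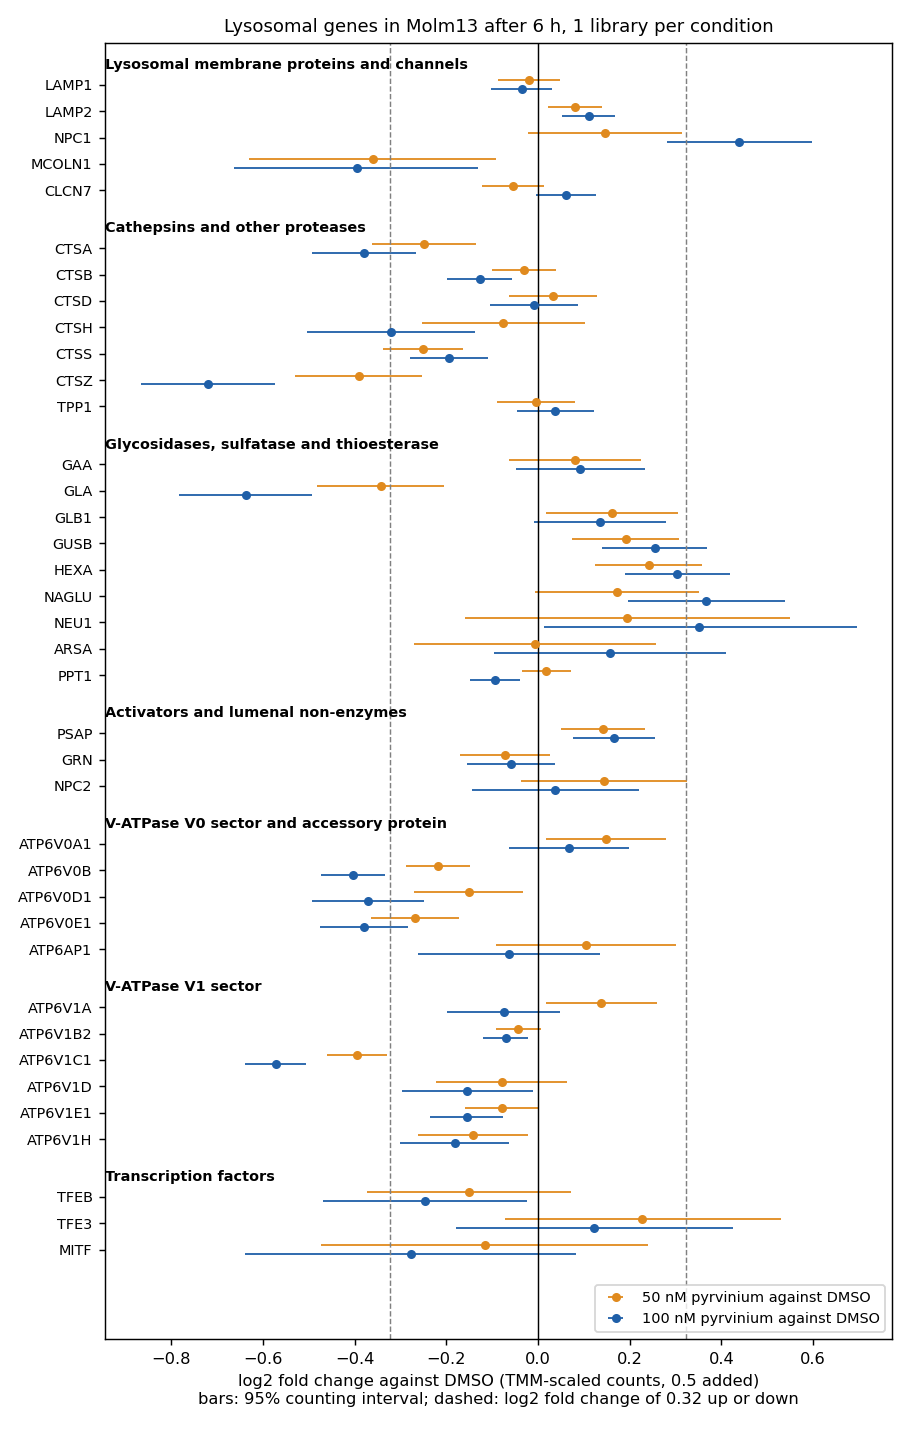
Each row is a member, the x axis is the log2 fold change against DMSO at 50 nM and 100 nM, and the bars are 95% intervals of counting error. The dashed lines mark the 0.32 threshold, and CTSZ (-0.72), GLA (-0.64) and ATP6V1C1 (-0.57) lie farthest to the left at 100 nM while NPC1 (0.44) lies farthest to the right.

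In the V0 sector, 3 of 5 members were called lower at 100 nM, beside 8.20% of all genes tested. ATP6V0B (chr1:44440602-44443972, hg19) had 3682 counts in DMSO, 3091 at 50 nM and 2896 at 100 nM. Both treated libraries were below DMSO and the 100 nM library was the lowest. Its log2 fold change was -0.22 (-0.29 to -0.15) at 50 nM and -0.40 (-0.47 to -0.33) at 100 nM, a ratio of 0.756. ATP6V0E1 (chr5:172410763-172461900) had 1999, 1621 and 1599 counts in the same order of libraries. Here most of the difference was already present at 50 nM, at -0.27 (-0.36 to -0.17), with -0.38 (-0.47 to -0.28) at 100 nM. ATP6V0D1 (chr16:67471917-67515089) encodes the d subunit, which joins the ring to the central stalk, and had 1233, 1084 and 992 counts. Its counts followed the order of the doses, with -0.15 (-0.27 to -0.03) at 50 nM and -0.37 (-0.49 to -0.25) at 100 nM. The remaining members of this group were not called. ATP6V0A1, a form of the a subunit that takes part in moving protons, had 920, 995 and 1003 counts, and its log2 fold change at 100 nM was 0.07. The accessory protein gene ATP6AP1 had 422, 443 and 420 counts, with no library set apart.

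In the V1 sector, 1 of 6 members, ATP6V1C1, was called, beside 8.20% of all genes called lower and 10.3% higher at 100 nM. It encodes the C subunit, which helps to hold V1 and V0 together and is released when the pump comes apart. ATP6V1C1 (chr8:104033248-104085285) had 4444 counts in DMSO, 3300 at 50 nM and 3110 at 100 nM. The DMSO library was well above both treated libraries. The log2 fold change was -0.39 (-0.46 to -0.33) at 50 nM and -0.57 (-0.64 to -0.51) at 100 nM, a ratio of 0.673. ATP6V1A, the subunit that hydrolyses ATP, had 1083, 1164 and 1070 counts and ATP6V1B2, its partner, had 6718, 6368 and 6653. Neither was called. At 100 nM each was at -0.07, with intervals of -0.20 to 0.05 for ATP6V1A and -0.12 to -0.02 for ATP6V1B2. The stalk subunits ATP6V1D (830, 767 and 776 counts) and ATP6V1E1 (2644, 2445 and 2470 counts) and the regulatory subunit ATP6V1H (1202, 1064 and 1102 counts) each had fewer counts in both treated libraries. Their intervals at 100 nM lay below 0, at -0.15, -0.16 and -0.18, short of the threshold.

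Over the 11 V-ATPase members, 10 had a fold change below 0 at 100 nM and 8 had intervals below 0, beside 50.4% and 25.3% of all genes tested. Their summed counts were 25177 in DMSO, 22342 at 50 nM and 22091 at 100 nM, a log2 ratio of -0.14 (-0.16 to -0.11) and -0.25 (-0.27 to -0.22). ATP6V1C1 alone held 4444, 3300 and 3110 of these counts. V-ATPase genes took 37.9% of all member counts in DMSO (Wilson interval 37.6% to 38.3%), 35.8% (35.5% to 36.2%) at 50 nM and 34.3% (34.0% to 34.7%) at 100 nM. Of 10 pump genes outside the list, 9 passed the filter and none was called at 100 nM or at 50 nM. Of all genes tested, 10.3% were called higher and 8.20% lower at 100 nM, and 4.56% and 3.80% at 50 nM. The 9 pump genes had a summed log2 ratio of -0.05 and a median of -0.14 at 100 nM. Among those with at least 100 counts, the largest value was that of ATP6V0A2 (0.15) and the smallest that of TCIRG1 (-0.17), both forms of the a subunit. TCIRG1 made up 66.2% of the RPKM of the 3 forms of the a subunit in DMSO, 60.8% at 50 nM and 61.7% at 100 nM. ATP6V0A1 made up 15.6%, 18.1% and 17.1%. ATP6V1C1, in contrast, made up 99.8% of the RPKM of the C subunit in DMSO and 99.9% at 100 nM, beside ATP6V1C2.

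Among the proteases, 2 of 7 members were called lower at 100 nM and none higher, beside 8.20% and 10.3% of all genes tested. CTSZ (chr20:57570242-57582309), a carboxypeptidase of the cysteine cathepsin family, had 999 counts in DMSO, 744 at 50 nM and 631 at 100 nM. The counts fell with the dose, and the 100 nM library was lower than the 50 nM library by more than counting error (-0.33 on the log2 scale). Against DMSO, CTSZ had -0.39 (-0.53 to -0.25) at 50 nM and -0.72 (-0.87 to -0.57) at 100 nM, the largest change of any member and a ratio of 0.607. CTSA (chr20:44519591-44527459), a serine carboxypeptidase that also protects lysosomal sialidase and beta-galactosidase, had 1425, 1171 and 1139 counts. Both treated libraries were below DMSO and the 100 nM library was slightly the lower, at -0.25 (-0.36 to -0.14) and -0.38 (-0.49 to -0.27). CTSH, an aminopeptidase, had 545, 505 and 454 counts, and its interval at 100 nM was -0.50 to -0.14. CTSS, the cysteine cathepsin known for invariant chain cleavage in antigen-presenting cells, had 2374, 1947 and 2158 counts, so its lowest library was the 50 nM library. Its intervals were -0.34 to -0.16 at 50 nM and -0.28 to -0.11 at 100 nM, and it was not called. CTSB, CTSD and TPP1 were not called. CTSB, a cysteine cathepsin, had 3354, 3207 and 3194 counts and a fold change of -0.13 (-0.20 to -0.06) at 100 nM. CTSD, the aspartic protease, had 1738, 1736 and 1798 counts and a log2 fold change of -0.01 at 100 nM. TPP1, a tripeptidyl peptidase, had 2224, 2165 and 2375 counts and a fold change of 0.04.

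Of the 9 glycosidases, sulfatase and thioesterase, 1 was called higher and 1 lower at 100 nM, beside 10.3% and 8.20% of all genes tested. GLA (chrX:100652779-100663001), the alpha-galactosidase deficient in Fabry disease, had 981 counts in DMSO, 755 at 50 nM and 656 at 100 nM. As for CTSZ, each library lay below the one of the next lower dose. The log2 fold change of GLA was -0.34 (-0.48 to -0.21) at 50 nM and -0.64 (-0.78 to -0.49) at 100 nM, a ratio of 0.643. NAGLU (chr17:40687951-40696467), which removes N-acetylglucosamine during heparan sulfate breakdown, went the other way with 490, 539 and 657 counts. NAGLU was called higher at 100 nM, at 0.37 (0.20 to 0.54), and was not called at 50 nM, at 0.17 (-0.01 to 0.35). The remaining members of this group were not called, and most had values above 0. HEXA, the alpha chain of beta-hexosaminidase, had 1109, 1280 and 1424 counts, with 0.30 (0.19 to 0.42) at 100 nM. GUSB, the beta-glucuronidase, had 1126, 1255 and 1397 counts, with 0.25 (0.14 to 0.37). In both, the counts followed the order of the doses and the intervals lay above 0, short of the threshold. NEU1 had 128, 143 and 170 counts, and its value of 0.35 passed the fold but not the adjusted p (interval 0.01 to 0.69). GLB1, the beta-galactosidase, had 752, 821 and 859 counts. GAA, the enzyme that breaks down lysosomal glycogen, had 780, 805 and 865 counts, and the sulfatase ARSA had 244, 237 and 283. None of these 3 had an interval clear of 0 at 100 nM. PPT1 had 5562, 5500 and 5420 counts and a fold change of -0.09 (-0.15 to -0.04) at 100 nM.

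Of the 5 membrane proteins, NPC1 was called higher and MCOLN1 lower at 100 nM, beside 10.3% and 8.20% of all genes tested. NPC1 (chr18:21111463-21166581) carries cholesterol out of the lysosomal lumen, and had 564 counts in DMSO, 609 at 50 nM and 795 at 100 nM. The 100 nM library stood above the other two, with a log2 fold change of 0.15 (-0.02 to 0.31) at 50 nM and 0.44 (0.28 to 0.60) at 100 nM, a ratio of 1.35. NPC2, the soluble partner that hands cholesterol to NPC1, was not called and had 485, 523 and 518 counts. MCOLN1 (chr19:7587496-7598895), a calcium channel of the lysosomal membrane, had 267, 203 and 211 counts. Both treated libraries were below DMSO and did not differ from each other beyond counting error, with -0.36 (-0.63 to -0.09) at 50 nM and -0.40 (-0.66 to -0.13) at 100 nM. The structural glycoprotein LAMP1 had 3616, 3483 and 3671 counts and, after scaling, a fold change of -0.04 (-0.10 to 0.03) at 100 nM. LAMP2, its relative, had 4485, 4631 and 5036 counts and a fold change of 0.11 (0.05 to 0.17) at 100 nM. The chloride-proton exchanger CLCN7 had 3643, 3425 and 3955 counts. LAMP1, LAMP2 and CLCN7 were not called at either dose. The other lumenal proteins were not called either. PSAP, the precursor of the saposins that help enzymes reach sphingolipids, had 1887, 2032 and 2201 counts and a fold change of 0.17 (0.08 to 0.25) at 100 nM. GRN, the progranulin gene, had 1766, 1640 and 1763 counts.

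None of the 3 transcription factor genes was called at either dose. Among all genes tested, 10.3% were called higher and 8.20% lower at 100 nM, and 4.56% and 3.80% at 50 nM. TFEB had 358 counts in DMSO, 315 at 50 nM and 314 at 100 nM, with -0.25 (-0.47 to -0.02) at 100 nM. TFE3 had 174, 199 and 197 counts and MITF had 141, 127 and 121. With these counts the 100 nM interval of MITF ran from -0.64 to 0.08, so a difference of 0.32 was within counting error. These are transcript levels, and the location of the proteins in the cell was not measured here. Of 10 other genes listed as targets of the family, 8 passed the filter, with a median of -0.09 at 100 nM. At that dose 1 was called lower and none higher, beside 8.20% and 10.3% of all genes tested. The gene called was GABARAPL1, an autophagy gene of the ATG8 family, with 63, 39 and 34 counts and -0.94 at 100 nM, named here after its values were seen. Among targets with at least 100 counts, MAP1LC3B, another ATG8 family gene, had the largest value (0.21) and RAB7A, a GTPase of late endosomes, the smallest (-0.19). Neither was called.

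Promoter sequences were set beside these values because TFEB-family factors bind the E-box CACGTG, and the longer form TCACGTGA, which contains it, is the core of the CLEAR element of lysosomal genes. Both motifs read the same on either strand, so 1 search covers both strands. RefSeq promoters on GRCh38.p14, from 250 bases before to 50 bases after each start, were at hand for 26 of the 38 members in 32 windows of 300 bases. The E-box was found in 9 of the 32 windows (28.1%), beside 7.26% of all 35116 promoters and 9.74% of the promoters of genes tested. The CLEAR core was found in 5 windows (15.6%), those of LAMP1, MCOLN1, CTSA, GAA and ATP6V0D1, beside 0.98% of all promoters and 1.76% of those of genes tested. An E-box without the core was found for CLCN7, CTSD, NEU1 and ATP6V0B. The stretches before the start are shown for the 4 members called lower whose promoter holds an E-box, and for GAA, which has 2 copies of the core and was not called. Coordinates are on GRCh38.p14, the sequence is that of the gene's strand, and capitals mark the motif.
MCOLN1 chr19:7522562-7522623 (+): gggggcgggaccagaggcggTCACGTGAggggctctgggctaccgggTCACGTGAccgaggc
CTSA chr20:45891273-45891334 (+): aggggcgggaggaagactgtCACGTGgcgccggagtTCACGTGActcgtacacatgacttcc
ATP6V0D1 chr16:67481190-67481237 (-): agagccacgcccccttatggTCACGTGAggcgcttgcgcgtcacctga
ATP6V0B chr1:43974883-43974946 (+): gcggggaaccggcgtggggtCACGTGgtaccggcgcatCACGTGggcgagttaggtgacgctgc
GAA chr17:80101484-80101576 (+): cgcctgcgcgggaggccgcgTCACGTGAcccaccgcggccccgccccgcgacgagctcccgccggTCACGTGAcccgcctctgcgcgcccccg

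A match is a description of the letters and not of binding. MCOLN1 and GAA each have 2 copies of the core. CTSA has 1 core and 1 further E-box, ATP6V0D1 has 1 core, and ATP6V0B has 2 E-boxes without the core. The 5 members with a core had log2 fold changes from -0.40 (MCOLN1) to 0.09 (GAA) at 100 nM, with a median of -0.37. Of these 5, 3 were called lower, beside 21.1% of all members and 8.20% of all genes tested. A link of the motif with the change was not tested. LAMP1, which has 2 copies of the core and 4 further E-boxes in its window, was at -0.04. The 9 members with an E-box of either form had a median of -0.04, and the 17 members with an entry and no E-box had a median of -0.06. Of the 8 members called lower at 100 nM, 4 had an E-box, 2 (CTSZ and GLA, those with the largest changes) had none in this window, and 2 (ATP6V0E1 and ATP6V1C1) had no entry.

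The groups of members are set side by side by their summed counts and medians. All genes tested had a median of 0.00 at either dose, with quartiles of -0.18 and 0.21 at 100 nM. At 100 nM, the V0 group had the lowest median, -0.37, with a summed log2 ratio of -0.31 (-0.36 to -0.27). The V1 group followed in summed counts with -0.21 (-0.25 to -0.18) and a median of -0.15, and the proteases had -0.16 (-0.20 to -0.13) and a median of -0.19. At 50 nM the sums were -0.16, -0.13 and -0.11 for the same groups. The pump, protease and factor groups lay below 0 by both measures at both doses, the factor genes with a sum of -0.04 and a median of -0.12 at 50 nM. The glycosidases, sulfatase and thioesterase had a sum at 0.01 (-0.02 to 0.05) and a median of 0.16. In that group PPT1, with a value below 0, held 5562 of the 11172 counts in DMSO. In the V1 group, ATP6V1C1 went from 192 CPM in DMSO to 129 at 100 nM, beside 730 and 630 for the whole group. The membrane proteins had a sum at 0.06 (0.03 to 0.10) and a median of 0.06, and the activators and lumenal non-enzymes 0.06 (-0.00 to 0.12) and 0.04. The factor genes, whose summed interval spans 0, had -0.15 (-0.31 to 0.01) and -0.25. Over all 16 hydrolases the sum was -0.08 (-0.10 to -0.05) and the median 0.01. Over the 38 members, 15 values lay above 0 and 23 below, with 7 intervals above 0 and 17 below. Of all genes tested, 50.4% of values lay below 0, 24.0% of intervals above 0 and 25.3% of intervals below 0. These were medians of groups of 3 to 9 genes, and the differences between groups were not tested.

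**Figure D3:**
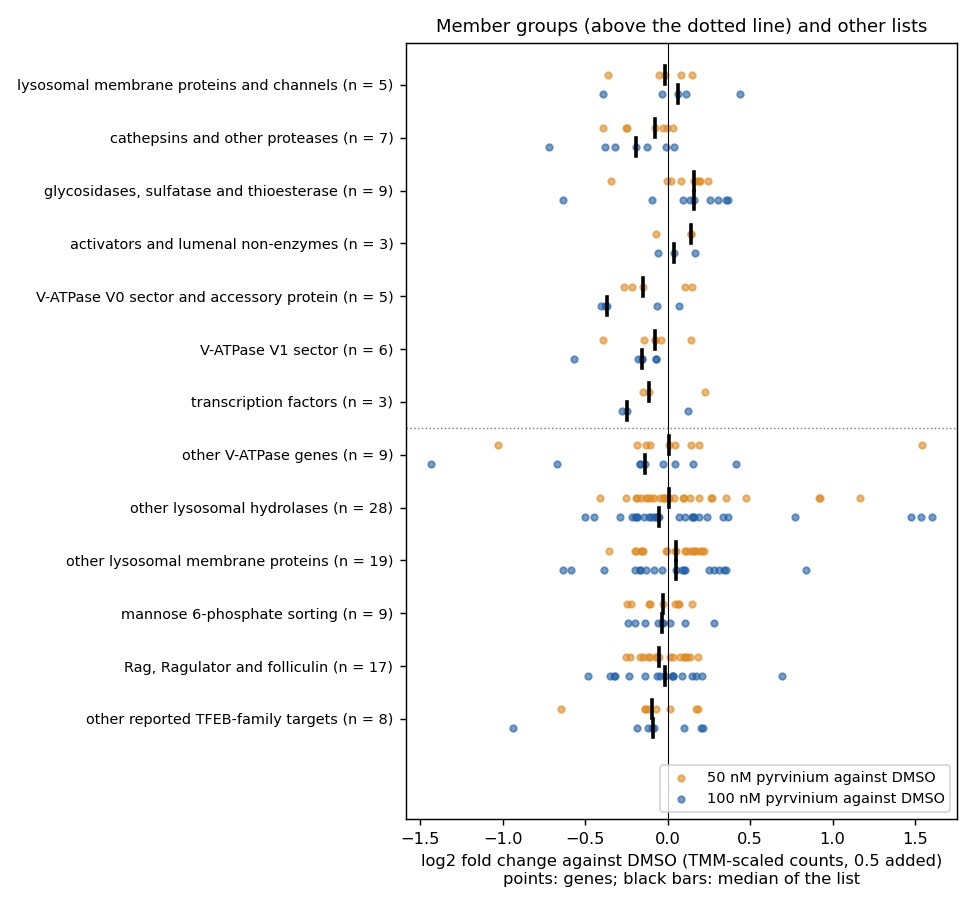
Points are genes, the x axis is the log2 fold change against DMSO at 50 nM and 100 nM, and black bars are the median of each list. The V0 group has the lowest median of the member groups at 100 nM (-0.37). Lists of genes outside the members are drawn below the dotted line. Among all lists, the other lysosomal hydrolases (-0.50 to 1.60) and the other V-ATPase genes (-1.44 to 0.41) have the widest ranges at 100 nM. The value of -1.44 is that of ATP6V1C2, with 6, 18 and 2 counts.

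Some lysosomal genes outside the members rose by more than any member. Of 32 other hydrolase genes, 28 passed the filter. At 100 nM, 5 were called higher, 1 lower and 3 at 2-fold, beside 10.3%, 8.20% and 2.20% of all genes tested. At 50 nM, 5 were called higher, 0 lower and 1 at 2-fold, beside 4.56%, 3.80% and 0.955%. The 28 hydrolase genes had a summed log2 ratio at 100 nM of -0.03 (-0.05 to -0.00) and a median of -0.05. DNASE2, the acid DNase, had 54, 100 and 164 counts and 1.54 (1.09 to 2.02) at 100 nM. CTSO, a cysteine cathepsin, and IDUA, the alpha-iduronidase, also passed 2-fold at 100 nM, with 30, 56 and 96 counts (1.60) and 55, 121 and 160 counts (1.47). AGA, which cleaves the bond between asparagine and glycans, had 389, 528 and 691 counts and 0.77. These last 3 were named after their values were seen. Among the 19 other membrane protein genes, 3 were called higher and 3 lower at 100 nM, beside 10.3% and 8.20% of all genes tested. At 50 nM, 0 were called higher and 1 lower, beside 4.56% and 3.80%. The median of the 19 genes at 100 nM was 0.05. TMEM175, a channel of the lysosomal membrane, had 230, 253 and 428 counts and 0.84 (0.60 to 1.08). SLC17A5, which exports sialic acid, had 504, 385 and 338 counts and -0.63 (-0.84 to -0.43).

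Of the 8 members called lower at 100 nM, 5 had exonic lengths under 2000 bases. By exonic length in the deposited counts, the 3 members under 1200 bases had a median log2 fold change of -0.38 at 100 nM and the 6 members from 1200 to 2000 bases had -0.35. The 9787 genes that reached 100 counts in every library had -0.08 (955 genes) and -0.05 (1671 genes) in these length ranges. The 16 members from 2000 to 3000 bases had -0.02 beside -0.03, and the 10 from 3000 to 5000 bases had 0.05 beside -0.01. The 3 members over 5000 bases, ATP6V1C1, MITF and LAMP2, did not follow this order and had -0.28 beside 0.04. Across the 38 members, Spearman's rho of length with the 100 nM fold change was 0.35 and Pearson's r 0.32. Across all 12879 genes tested rho was 0.07 and r 0.02, and across the 9787 genes that reached 100 counts in every library rho was 0.14 and r 0.12. These are descriptions across genes that share the same pair of libraries. The part of length in the result was not tested.

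**Figure D4:**
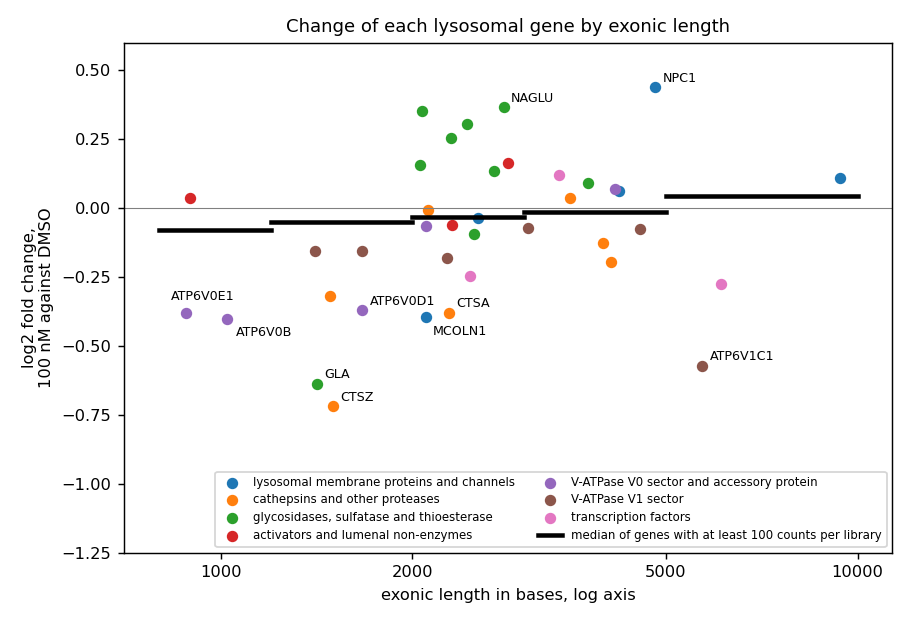
Points are the 38 members coloured by group, the x axis is exonic length in bases on a log scale, the y axis is the log2 fold change at 100 nM, and black bars are medians of all genes that reached 100 counts in every library. CTSZ, GLA, ATP6V0B, ATP6V0E1 and ATP6V0D1 lie at the left and low, and ATP6V1C1 lies low at the right.

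Some members share exonic bases with another gene, and the strand setting of the counting is not given in the sources used here. CTSA overlaps NEURL2 on the opposite strand over 13.6% of its exonic length and PLTP over 2.75%. NPC1 overlaps RMC1 on the opposite strand over 3.28%, HEXA overlaps HEXA-AS1 over 2.75%, and GLB1 holds TMPPE on the same strand over 3.08%. RMC1 had 584, 585 and 651 counts. No other member that was called had such an overlap.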

How the data were processed

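Reads of stranded libraries were aligned to hg19 by the authors (Rsubread), who deposited raw counts per gene as whole numbers. The strand setting of the counting is not given in the sources used here. A deposited table of the authors' EBSeq comparisons and its 4 columns of means were not used.

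Conditions came from the sample labels. Libraries were scaled by TMM (edgeR 4.0.16, R 4.3.3). Genes that reached 10 counts in any library, 12879 in all, entered an exact two-sided binomial test (scipy 1.17.1) with Benjamini-Hochberg adjustment. For log2 fold changes, 0.5 was added to each count, and 95% Clopper-Pearson intervals cover counting error only. RPKM and CPM used the scaled library sizes. The procedure was tested on simulated data that held counting error only, so that test cannot show how the calls fare under spread between cultures.

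Members and lists were chosen with earlier results of these data known. The lists were the 7 member groups, other V-ATPase genes, other lysosomal hydrolases, other lysosomal membrane proteins, mannose 6-phosphate sorting, the Rag, Ragulator and folliculin genes, and other reported TFEB-family targets. From each list outside the members, the text names the largest rise and fall at 100 nM among genes whose higher library held 100 counts or more. 1 such gene is not reported here. The settings varied were the scaling (DESeq2 1.42.0, library totals, or TMM leaving out mitochondrially encoded genes), the count minimum (1 or 50), the counts added (5), the fold (1.5) and the test (edgeR's exact one, given a BCV of 0.1, 0.2 or 0.4).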

Additional observations from a re-analysis of the deposited data

How the results depend on the processing

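The scalings moved fold changes by at most 0.0036 on the log2 scale. Under the other scalings, count minimums and 5 counts added, the counts of members called stayed within 1.5 times. Each member's fold change kept its direction and its side of the call threshold under the other scalings and 5 counts added, and each group's sum stayed within its counting interval under the other scalings. When a biological coefficient of variation (BCV) of 0.1, 0.2 or 0.4 was assumed in edgeR's exact test, the members called at a log2 fold change of 0.32 were 0 lower at 50 nM, 0 higher at 100 nM and 0 lower at 100 nM in each case. With a BCV of 0.1 and no adjustment of p, 3 members were lower and 1 higher at 100 nM, beside 4.36% and 6.92% of all genes. After adjustment, 68 of all genes were lower and 176 higher. With a fold threshold of 1.5, 0 members were lower at 50 nM, 0 higher and 2 lower at 100 nM. The assumed BCVs are not measured here, so whether any member's change exceeds the spread between cultures is unknown. No paired analysis was possible because each condition has 1 library, and for the same reason no library could be left out.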

Other observations

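The machinery that delivers hydrolases to the lysosome and the complexes that place mTORC1 there were described by the same rule as the members. All 9 genes of mannose 6-phosphate sorting passed the filter and at 100 nM none was called, beside 10.3% of all genes called higher and 8.20% lower, with a median log2 fold change of -0.04. GGA3, a sorting adaptor, had 1441 counts in DMSO, 1557 at 50 nM and 1823 at 100 nM and the largest value, 0.28 (0.18 to 0.38). NAGPA, which uncovers the mannose 6-phosphate tag, had 665, 547 and 584 counts and the smallest value, -0.24 (-0.41 to -0.08).

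All 17 Rag, Ragulator and folliculin genes passed the filter, with a median of -0.02 at 100 nM. The Ragulator genes LAMTOR4 (-0.35) and LAMTOR5 (-0.33) were called lower, which was 2 of 17 beside 8.20% of all genes. None was called higher, beside 10.3% of all genes. LAMTOR4 and LAMTOR5 were named after their values were seen. Among genes with at least 100 counts, RHEB, the GTPase that activates mTORC1, had the largest value, 0.21 (0.06 to 0.36), with 666, 739 and 799 counts. FNIP2, a partner of folliculin, had the smallest, -0.48 (-0.93 to -0.05), with 105, 86 and 78 counts, and was not called.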
